A study of Mus musculus with 4 samples.

Results

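The 9 genes described here, *Calca*, *Calcb*, *Tac1*, *Sst*, *Nppb*, *Adcyap1*, *Gal*, *Npy* and *Vip*, encode neuropeptides of primary sensory neurons. They were chosen by their symbols among the 33456 genes of the count tables, and 8 of the 9 had at least 1 UMI (unique molecular identifier, the tag that counts one captured transcript once) in some barcode, *Vip* being the exception. The tables came from single cell suspensions of dorsal root ganglia (DRG), labelled as L4, of C57BL/6 mice aged 8 to 12 weeks. Naïve control mice were compared with mice taken 3 days after a sciatic nerve crush, with 2 libraries per condition. Per the study's methods the mice were female, and cells of several mice were pooled for a library. A crush reaches only the neurons whose axons run in the sciatic nerve, so an injury library can hold injured and spared neurons together. The ganglia were digested with papain and collagenase, live cells were sorted, and libraries were made with the 10x Genomics kit that reads transcripts at their 3′ end. Nothing in the labels ties a library to single animals, so p-values measured the spread between these libraries only.

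Sensory neuropeptides are made in the neuron soma as long precursors, packed into dense core vesicles, cut and amidated there, and released from both the peripheral and the central endings of the axon. *Calca* and *Calcb* encode the α and β forms of calcitonin gene-related peptide (CGRP), a strong vasodilator, and *Tac1* encodes substance P, and together they define the peptidergic nociceptors. *Sst* (somatostatin) and *Nppb* (natriuretic polypeptide b) mark a small class of itch neurons, and *Adcyap1* encodes the peptide PACAP. *Gal* (galanin), *Npy* (neuropeptide Y) and *Vip* (vasoactive intestinal peptide) are the classic peptides whose transcripts appear in sensory neurons after the axon is cut, whereas those of CGRP and substance P decline.

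On the mouse genome GRCm38 (GENCODE M21), all 9 were protein-coding genes, and each identifier in the files matched the annotation. *Calca* (ENSMUSG00000030669) lay at chr7:114631478-114636357 on the minus strand and *Calcb* (ENSMUSG00000030666) at chr7:114718643-114723365 on the plus strand, 82285 bases apart. *Tac1* (ENSMUSG00000061762) lay at chr6:7554879-7565834 and *Npy* (ENSMUSG00000029819) at chr6:49822710-49829507, both on the plus strand. *Gal* (ENSMUSG00000024907) lay at chr19:3409915-3414544 on the minus strand, *Adcyap1* (ENSMUSG00000024256) at chr17:93199017-93206537 on the plus strand and *Sst* (ENSMUSG00000004366) at chr16:23889573-23890958 on the minus strand. *Nppb* (ENSMUSG00000029019) lay at chr4:147985788-147987205 and *Vip* (ENSMUSG00000019772) at chr10:5639218-5647617, both on the plus strand. *Calca* and *Calcb* are paralogs whose tags could be confused. Their transcripts shared at most 61 identical bases in a row anywhere, but only 7 to 13 within the last 300 bases, the end that this chemistry reads, over 21 pairs of transcripts.

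Several of these genes are textbook targets of cyclic AMP signalling, whose response element contains the letters TGACG. The promoters of the 3 most abundant members and of *Sst*, the gene in which the element was first described, are printed below from RefSeq (GRCm38.p6), from 250 bases before to 50 bases after the transcript start, 5′ to 3′ along the gene. Capitals mark TGACG on either strand, so that a match on the other strand reads CGTCA. The windows are chr19:3414495-3414794 for *Gal*, chr6:7554811-7555110 for *Tac1*, chr7:114636308-114636607 for *Calca* and chr16:23890795-23891094 for *Sst*.
Gal: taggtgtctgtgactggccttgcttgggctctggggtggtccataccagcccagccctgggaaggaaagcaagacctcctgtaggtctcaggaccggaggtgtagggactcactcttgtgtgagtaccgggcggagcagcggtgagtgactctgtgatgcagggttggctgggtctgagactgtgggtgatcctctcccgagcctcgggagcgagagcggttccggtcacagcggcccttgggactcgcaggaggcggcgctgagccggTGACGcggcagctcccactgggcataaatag
Tac1: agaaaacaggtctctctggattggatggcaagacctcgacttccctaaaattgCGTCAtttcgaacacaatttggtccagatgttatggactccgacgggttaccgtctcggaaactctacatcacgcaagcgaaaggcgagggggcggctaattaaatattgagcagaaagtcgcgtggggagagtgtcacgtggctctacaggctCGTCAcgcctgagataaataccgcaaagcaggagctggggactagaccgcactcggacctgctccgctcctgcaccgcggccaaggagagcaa
Calca: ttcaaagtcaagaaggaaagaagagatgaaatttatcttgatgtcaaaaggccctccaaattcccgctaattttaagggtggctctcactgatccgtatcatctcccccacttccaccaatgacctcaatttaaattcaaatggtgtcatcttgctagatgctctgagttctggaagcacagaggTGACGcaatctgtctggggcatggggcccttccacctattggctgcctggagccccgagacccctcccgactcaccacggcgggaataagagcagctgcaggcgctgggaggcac
Sst: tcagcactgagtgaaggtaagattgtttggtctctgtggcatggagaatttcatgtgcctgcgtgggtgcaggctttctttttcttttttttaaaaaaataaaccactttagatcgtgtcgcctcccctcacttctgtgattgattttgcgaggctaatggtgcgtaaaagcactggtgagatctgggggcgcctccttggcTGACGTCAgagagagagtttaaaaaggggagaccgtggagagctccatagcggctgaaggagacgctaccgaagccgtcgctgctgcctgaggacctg
With the start counted as 0, the match began at position 19 in *Gal*, at -197 and -43 in *Tac1*, and at -65 in *Calca*. The *Sst* window held the full palindrome TGACGTCA at -48, where both strands match over the same bases. TGACG on either strand was present in 7 of the 9 promoters of the 8 members with an entry, which belong to 6 members. Over all promoters it was present in 6837 of 32851, or 20.8%. TGACGTCA was present in 588 promoters, or 1.79%, and among the members in that of *Sst* only. The windows of *Nppb* and *Npy* held neither. These matches are a description of letters, and no binding was measured here.

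The 4 libraries held 6975 barcodes with 5585909 to 11210875 UMIs each. A barcode was called a neuron when it held UMIs of at least 9 of 12 neuronal markers, which gave 351 neurons. Of these, 26 and 194 came from control replicates 1 and 2, and 37 and 94 from injury replicates 1 and 2, the order in which paired values are given throughout. All 12 markers were present in the neurons, at 134 to 3960 CPM (the UMIs of a gene per 1000000 UMIs of all barcodes summed), against 0.619 to 30.6 CPM in the 6606 non-neuronal barcodes. The gate used these same markers, so this contrast follows from it. Markers of satellite glia, the cells that wrap each neuron, summed to 9.86 and 429 CPM in control neurons and to 102 and 324 CPM in injury neurons. The injury marker *Sprr1a* had 0 and 1 UMI in control neurons and 6044 and 3009 in injury neurons, which matched the labels. Between libraries, 20 barcode sequences recurred, 3 of them neurons in a library.

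Transcripts of the 5 abundant members were neuronal. Neurons held 98.5% of the 21406 *Tac1* UMIs, 98.3% of the 3150 *Calcb* UMIs and 99.0% of the 2280 *Adcyap1* UMIs. Of the 25145 *Calca* UMIs, 24565 were in neurons. Together the members made up 0.807% and 0.574% of all neuron UMIs in control and 1.01% and 0.864% after injury, and 26, 193, 37 and 93 neurons, nearly every one, held a UMI of some member.

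As the mean of the 4 libraries, *Calca* stood at 2447 ± 1000 CPM (SD, n = 4) in neurons. The next cell type was Schwann cells at 36.1 ± 26.6 CPM, followed by satellite glia at 22.5 ± 12.1 CPM and macrophages at 21.6 ± 10.9 CPM. These non-neuronal types could not be ordered beyond their spread, and the step down from neurons was far wider than it. *Tac1* stood at 2119 ± 979 CPM in neurons and next at 16.4 ± 12.8 CPM in macrophages. *Calcb* stood at 365 ± 289 CPM in neurons against 3.70 ± 3.18 CPM in macrophages, the next of the 7 types. *Adcyap1* stood at 241 ± 72.4 CPM in neurons against 1.93 ± 2.79 CPM in mural cells. *Gal* varied most between libraries, with 2876 ± 3491 CPM in neurons and 20.9 ± 12.8 CPM in neutrophils, the next type.

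**Figure D1:**
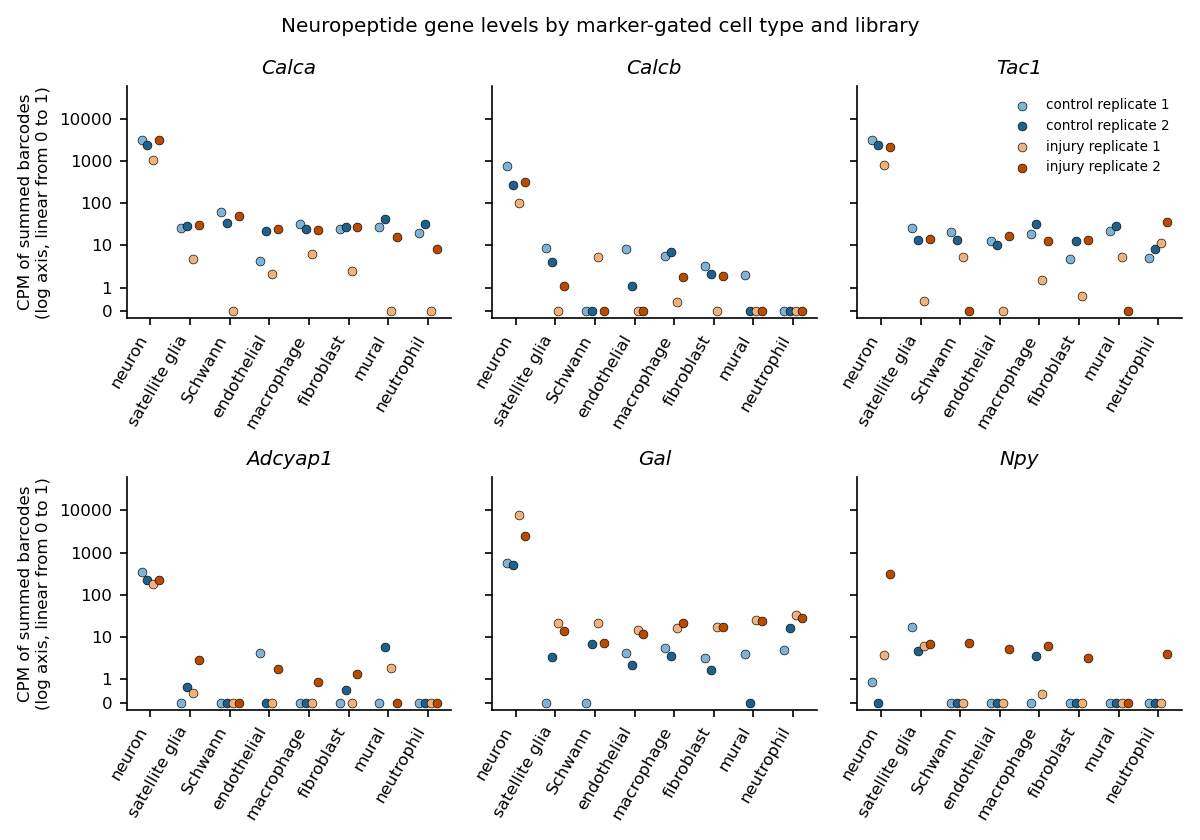
Level of 6 neuropeptide genes (CPM on a log axis that is linear from 0 to 1) in neurons and 7 non-neuronal cell types, each point 1 library coloured by library. Neurons stand above every other type for *Calca*, *Calcb*, *Tac1*, *Adcyap1* and *Gal*, while the *Npy* points of satellite glia, at 4.72 to 17.0 CPM, lie above those of neurons in 3 of the 4 libraries. The point at 17.0 CPM is 4 UMIs of 1 barcode.

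Non-neuronal barcodes carried each abundant peptide at a low level, with means of 13.1 to 36.1 CPM for *Calca* over 7 types. This level was read as the background of free RNA, which was not tested. It was not spread evenly, since 1 Schwann barcode of control replicate 1 held 7 of the 12 *Calca* UMIs of its type. Over all non-neuronal barcodes, *Calca* stood at 28.5 and 30.4 CPM in control and at 4.10 and 25.9 CPM after injury. *Gal* stood at 3.14 and 3.11 CPM there in control and at 21.2 and 16.7 CPM after injury, higher in the condition in which neurons were higher. The level in neurons was 180 and 161 times that background in control and 373 and 151 times in injury. Without correction for depth, 6.92% of non-neuronal barcodes had a *Calca* UMI, 3.78% a *Tac1* UMI and 4.86% a *Gal* UMI, at median depths of 2697.5 to 4786 UMIs. The median depth of neurons was 18114.5 to 33278.5 UMIs. When every barcode was thinned to 1000 UMIs, *Tac1* was found in 67.2% of neurons and 0.971% of non-neuronal barcodes, *Calca* in 43.6% and 1.94%, *Gal* in 39.9% and 1.26%, *Adcyap1* in 18.5% and 0.0304%, and *Calcb* in 16.5% and 0.213%. The shares of neurons with these transcripts were thus above the background at matched depth.

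Within neurons the members were spread over sensory classes in different ways. Classes were set by markers that did not include the members, and 5 are described here, the *Mrgprd* (nonpeptidergic), *Trpm8* (cold), *Th* (low-threshold touch), *Nefh* (myelinated) and *Il31ra* (itch) classes. They are small, with 25 neurons in the *Trpm8* class, 21 in the *Mrgprd* class, 14 in the *Nefh* class, 11 in the *Th* class and 2 in the *Il31ra* class over all libraries. Of these, *Calca* was highest in the *Mrgprd* class at 1034 ± 894 CPM (n = 4) and the *Nefh* class at 987 ± 1630 CPM (n = 3), which were not apart beyond their spread. The *Trpm8* class stood at 263 ± 469 CPM and the *Th* class at 25.2 ± 17.8 CPM (n = 2). *Calcb* stood at 798 ± 456 CPM in the *Mrgprd* class, at 269 ± 19.4 CPM in the *Th* class, at 139 ± 169 CPM in the *Trpm8* class and at 119 ± 117 CPM in the *Nefh* class. The *Trpm8* and *Nefh* classes did not differ beyond their spread. The *Calcb* level of the *Mrgprd* class rested on few neurons, since 1 of 10 held 279 of the 354 UMIs in control replicate 2 and 1 of 3 held 107 of the 109 in injury replicate 1. *Tac1* stood at 87.8 ± 78.7 CPM in that class.

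Of the same classes, *Tac1* was highest in the *Trpm8* class at 4903 ± 1471 CPM, followed by the *Nefh* class at 782 ± 645 CPM. By library the *Trpm8* class stood at 6947 and 4811 CPM in control and 3482 and 4370 CPM in injury, so that substance P transcript was high in the cold-sensing neurons of every library. *Adcyap1* stood at 147 ± 183 CPM in the *Trpm8* class and at 146 ± 130 CPM in the *Nefh* class, level with each other. It stood at 3.39 ± 6.78 CPM in the *Mrgprd* class, and the *Th* class had no UMI. *Gal* in control neurons stood at 1412 and 294 CPM in the *Trpm8* class, against 2.47 and 3.54 CPM in the *Mrgprd* class. Galanin transcripts in uninjured ganglia were thus present in the cold-sensing class and near the background in the nonpeptidergic class.

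**Figure D2:**
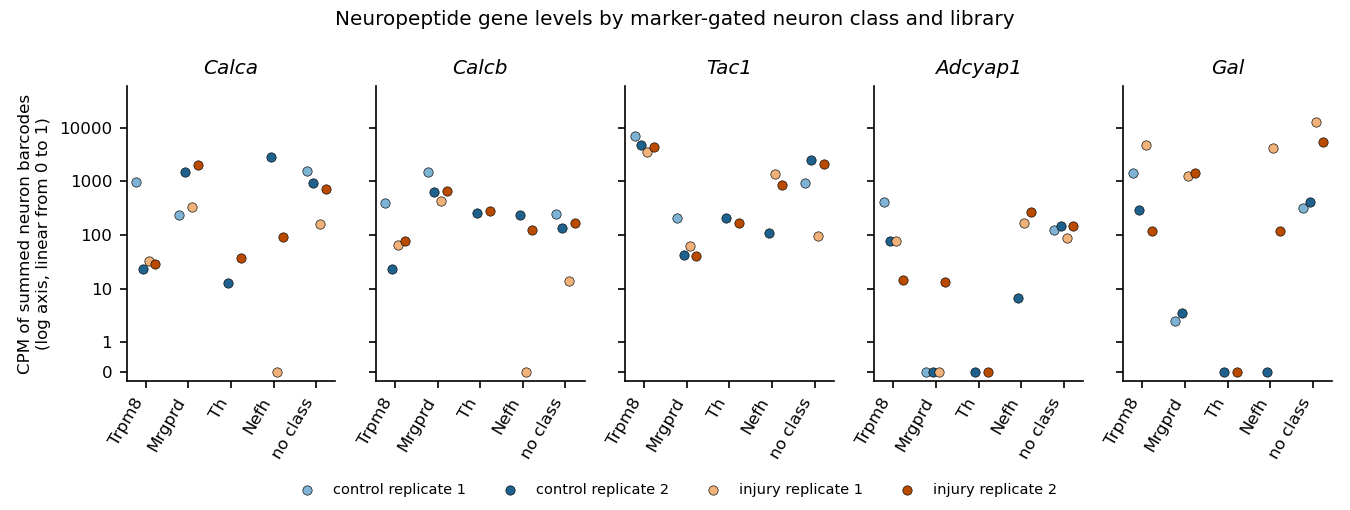
Level of 5 neuropeptide genes (CPM on a log axis that is linear from 0 to 1) in 4 marker-set neuron classes and in neurons that met no class, each point 1 library coloured by library. *Tac1* is highest in the *Trpm8* class, at 4903 CPM on average, and *Calcb* in the *Mrgprd* class, at 798 CPM on average.

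Co-detection of the peptides was counted in single neurons. After thinning to 5000 UMIs, 212 control and 130 injury neurons remained, of which 185 and 85 held *Tac1*. In control, 125 neurons held both *Calca* and *Tac1*, which were 89.9% of the *Calca* neurons and 67.6% of the *Tac1* neurons. After injury, 48 held both, or 68.6% and 56.5%. *Calcb* and *Calca* shared 94 control neurons, which were 83.2% of the *Calcb* neurons and 67.6% of the *Calca* neurons. Of the 131 control neurons with *Gal*, 129 (98.5%) held *Tac1*, and these were 69.7% of the *Tac1* neurons. In injury ganglia these shares were 67.5% and 65.9%. *Tac1* was found in most control neurons, so that high shares with it are read against that base. All neurons of a library share its free RNA, and these shares were not tested.

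The genes most like each member across the 351 neurons, by Pearson's r of log levels, differed between members. *Calca* was most like *Tmem100* (r = 0.76), *Ppp3ca* (0.70) and *S100a13* (0.70). *Tac1* was most like *Fgf13* (0.67), *Rit2* (0.66) and *Tmem176b* (0.62), and *Adcyap1* was most like *Calca* (0.65), *Gpx3* (0.63) and *Aqp1* (0.62). *Calcb* was most like its paralog *Calca* (0.59), *Cd9* (0.52) and *Ppp3ca* (0.51). *Gal* was most like *Gfra3* (0.65), the receptor for the growth factor artemin, *Gap43* (0.59), a growth cone protein, and *Smim3* (0.57). The neurons of these points share 4 libraries and differ in depth, so the values are a description.

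The comparison of injury with control asked how the peptide transcripts of sensory neurons stood 3 days after the crush. Of the 5 members that passed the filter on low counts, *Gal* differed by the most CPM and by the largest fold. It stood at 564 and 499 CPM in control neurons and at 7920 and 2522 CPM in injury neurons, a mean of 531 ± 46.2 against 5221 ± 3817 CPM (n = 2 each). The groups did not overlap, an order whose share over all genes was not counted. In the library with 7920 CPM *Gal* was the gene with rank 6 among all genes in neurons, against ranks 289 and 331 in control. The difference did not pass the test, with a log2 fold change of 3.47 (SE 0.58) and an adjusted p of 0.158 (edgeR, quasi-likelihood test, Benjamini-Hochberg method over 10621 genes).

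The CGRP and substance P genes leaned the other way and did not pass either. *Tac1* stood at 3162 and 2397 CPM in control neurons and at 811 and 2105 CPM in injury neurons. Both injury libraries were below both controls, an order that was again not counted over all genes. The log2 fold change by edgeR was -0.82 (SE 0.42, adjusted p = 0.561). *Calcb* stood at 776 and 275 CPM in control and at 98.9 and 310 CPM after injury, with overlapping groups and a log2 fold change of -1.25 (SE 0.63, adjusted p = 0.558). *Calca* stood at 3227 and 2350 CPM in control and at 1069 and 3143 CPM after injury. Its groups overlapped, and its log2 fold change was -0.30 (SE 0.46, adjusted p = 0.845). *Adcyap1* stood at 344 and 222.2 CPM in control and at 175 and 221.9 CPM after injury, with a log2 fold change of -0.38 (SE 0.29, adjusted p = 0.686). Of these 5 members, 0 were called in either direction by edgeR, where 0.0471% of all genes tested were called higher and 0% lower. *Gal* alone had an unadjusted p below 0.05, where 1041 of all 10621 genes tested by edgeR had one. DESeq2 called *Gal* alone, where it called 123 of 12040 genes higher and 14 lower. The median log2 fold change was -0.38 over the 5 members and -0.02 over all genes tested.

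**Figure D3:**
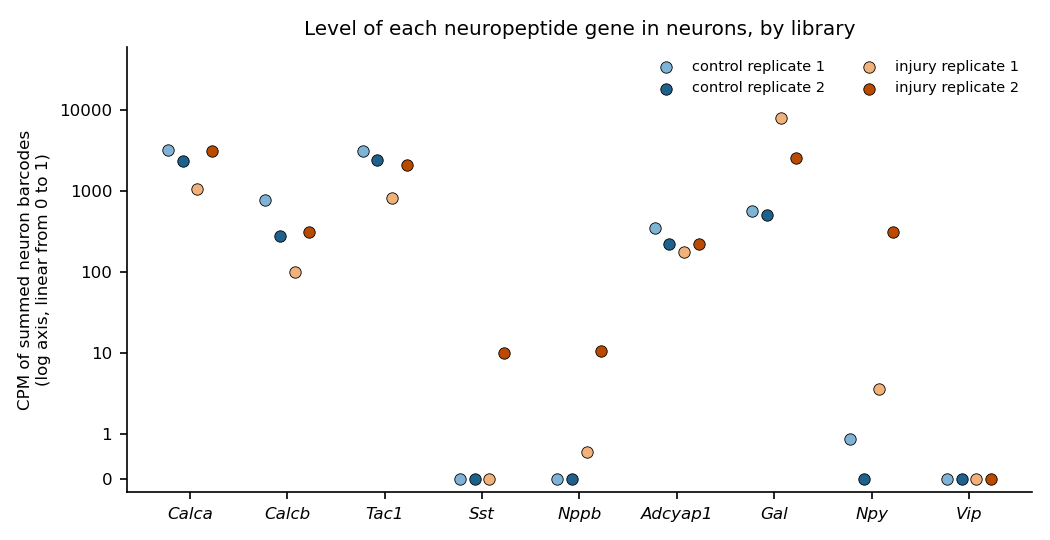
Level of the 9 neuropeptide genes in neurons (CPM on a log axis that is linear from 0 to 1), each point 1 of the 2 control or 2 injury libraries. For *Gal* both injury libraries, at 7920 and 2522 CPM, lie above both controls, and for *Tac1* both lie below. How many of all genes show such an order was not counted. *Sst* appears in 1 injury library only, as do 950 of the *Npy* UMIs, which come from 1 neuron.

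The call for *Gal* depended on the setting. Without injury replicate 1, the log2 fold change was 2.32 (adjusted p = 0.0320), and without injury replicate 2 it was 4.10 (adjusted p = 0.00254). Both of these fits leave 1 injury library, which is assumed to vary like the control libraries. With the replicate number as a block it was 3.21 (adjusted p = 0.00670), with DESeq2 3.49 (adjusted p = 0.00280) and within the study's own cell limits 2.87 (adjusted p = 0.0395), where only 3 and 44 control and 2 and 17 injury neurons remained. Over all 15 alternatives the log2 fold change lay between 2.32 and 4.10 and the adjusted p between 6.60e-29, with no filter on low counts, and 1.00, with the barcodes of all cell types summed. The count for all genes moved as well, from 5 genes higher to 145 without injury replicate 2 and to 0 without control replicate 2.

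A single neuron weighed on several of these sums. In injury replicate 2, 1 neuron held 31.9% of the *Gal* UMIs, and without it the library stood at 1771 CPM, still above both controls. In injury replicate 1, 1 neuron held 65.6% of the *Calcb* UMIs and 1 held 35.5% of the *Calca* UMIs. The summed satellite glia markers were lowest in control replicate 1, at 9.86 CPM. In the edgeR fit without neurons that also passed the satellite glia gate, the log2 fold change of *Gal* was 3.25 (adjusted p = 0.155). It was -0.64 for *Tac1* (0.722), -1.53 for *Calcb* (0.426), -0.39 for *Calca* (0.858) and -0.33 for *Adcyap1* (0.773). The part of satellite glia transcripts in the remaining neurons was not tested.

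The shares of neurons with a transcript were compared after thinning to 5000 UMIs. *Tac1* was found in 96.2% and 86.0% of control neurons and in 54.1% and 69.9% of injury neurons. *Calca* was found in 80.8% and 63.4% against 40.5% and 59.1%, *Calcb* in 76.9% and 50% against 18.9% and 46.2%, and *Adcyap1* in 65.4% and 51.6% against 43.2% and 46.2%. For these 4 genes both injury libraries lay below both controls, an order whose share over all genes was not counted. The differences of the means were -29.1 points for *Tac1*, -22.3 for *Calca*, -30.9 for *Calcb* and -13.8 for *Adcyap1*, each with p = 0.33 in a two-sided exact permutation test over the 4 libraries. That is the smallest p this design allows.

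*Gal* stood apart in this readout. It was found in 69.2% and 60.8% of control neurons and in 83.8% and 55.9% of injury neurons, a difference of 4.86 points (two-sided exact permutation p = 1). The share of neurons with *Gal* thus overlapped between conditions while the level in neurons did not. In control replicate 2, 27 of 194 neurons held 50% of the *Gal* UMIs, and in injury replicate 2, 4 of 94 did.

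**Figure D4:**
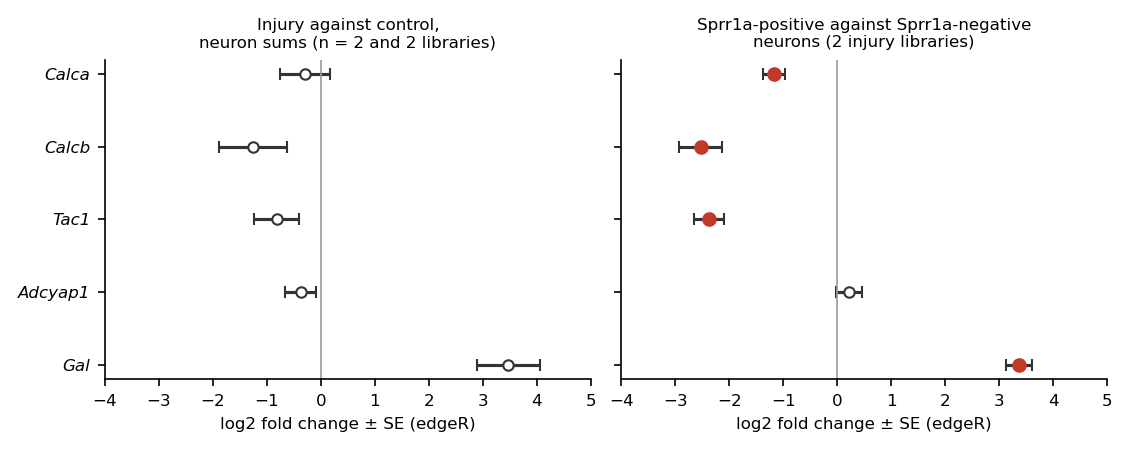
Log2 fold change with its SE for the 5 members that passed the filter, injury against control in neurons (left) and Sprr1a-positive against Sprr1a-negative neurons of the injury libraries (right), with red filled points for an adjusted p under 0.05. No point passes on the left, and on the right *Gal* lies at 3.37 and *Tac1*, *Calca* and *Calcb* lie below 0.

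The injury libraries hold neurons with and without *Sprr1a*, a gene that is switched on in axotomized neurons and was at or near 0 in control. The next comparison asked whether the peptide transcripts differed between these neurons within the same library. With 1 UMI of *Sprr1a* as the limit, 23 and 24 neurons were positive and 14 and 70 were negative. Non-neuronal barcodes of these libraries carried *Sprr1a* at 7.04 and 4.68 CPM, which was again read as the background of free RNA. With at least 2 UMIs required, 21 and 20 neurons were positive. *Gal* was much higher in the positive neurons, at 10129 against 1520 CPM in injury replicate 1 and at 6141 against 473 CPM in injury replicate 2, or 6.66 and 13.0 times. The log2 fold change was 3.37 (SE 0.24) with an adjusted p of 3.10e-15 by edgeR with the library as a block over 8748 genes. Of all *Gal* UMIs in neurons, 95.1% and 88.0% lay in the positive neurons, which held 74.3% and 36.2% of all neuron UMIs.

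Single neurons were counted as well. *Gal* was present in 23 of 23 and 23 of 24 positive neurons. Of the 14 and 70 negative neurons, 5 and 20 held no *Gal* UMI. These counts were made without thinning. Positive neurons were deeper and free RNA adds to such counts, so they are not a comparison at matched depth. The median level of the positive neurons was 11302 and 4820 CPM, and their lower quartile was 4362 and 35.3 CPM. The median was 1398 and 174 CPM in the negative neurons and 724 and 371 CPM in control neurons. The median of the negative neurons thus lay above both controls in 1 injury library and below both in the other.

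*Tac1* was lower in the positive neurons, with 561 against 1536 CPM in injury replicate 1 and 262 against 3150 CPM in injury replicate 2. The medians over single neurons were 41.4 against 725 CPM and 5.70 against 2464 CPM. The sums are 2.74 and 12.0 times lower, with a log2 fold change of -2.36 by edgeR (SE 0.28, adjusted p = 5.73e-09). The groups were not matched for neuron class, and the part of class was not tested. In injury replicate 2 the 7 *Trpm8*-class neurons, at 4370 CPM of *Tac1*, were all negative. In neurons that met no class, *Tac1* stood at 90.2 against 155 CPM and 522 against 2760 CPM. In the *Nefh* class it stood at 1635 against 23.0 CPM and 13.8 against 2056 CPM, with 1 to 4 neurons per group. The *Calca* sums were lower too, with 813 against 1808 CPM and 1461 against 4096 CPM, a log2 fold change of -1.17 (SE 0.20, adjusted p = 2.09e-05). Single neurons did not follow this in both libraries. Their medians were 0 against 478 CPM in injury replicate 1, but 434 against 178 CPM in injury replicate 2, where *Calca* was found in 91.7% of positive and 74.3% of negative neurons, or in 70.8% and 55.1% after thinning to 5000 UMIs. In that library the negative neurons reached 18719 CPM and the positive ones 7092 CPM. *Calcb* was at 7.34 against 364 CPM and at 180 against 384 CPM, a log2 fold change of -2.52 (SE 0.40, adjusted p = 4.08e-06). In injury replicate 1 the *Calcb* values were 9 and 154 UMIs, and 107 of the latter came from 1 neuron. *Adcyap1* stood at 157 against 227 CPM and at 283 against 187 CPM, in opposite directions, with a log2 fold change of 0.22 (SE 0.24, adjusted p = 0.646). Of the 5 members tested, 1 was higher and 3 were lower, where 6.9% of all genes tested were called higher and 6.06% lower. With at least a 4-fold difference also required, *Gal* was called higher and *Tac1* and *Calcb* lower, where 1.81% and 1.93% of all genes were.

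**Figure D5:**
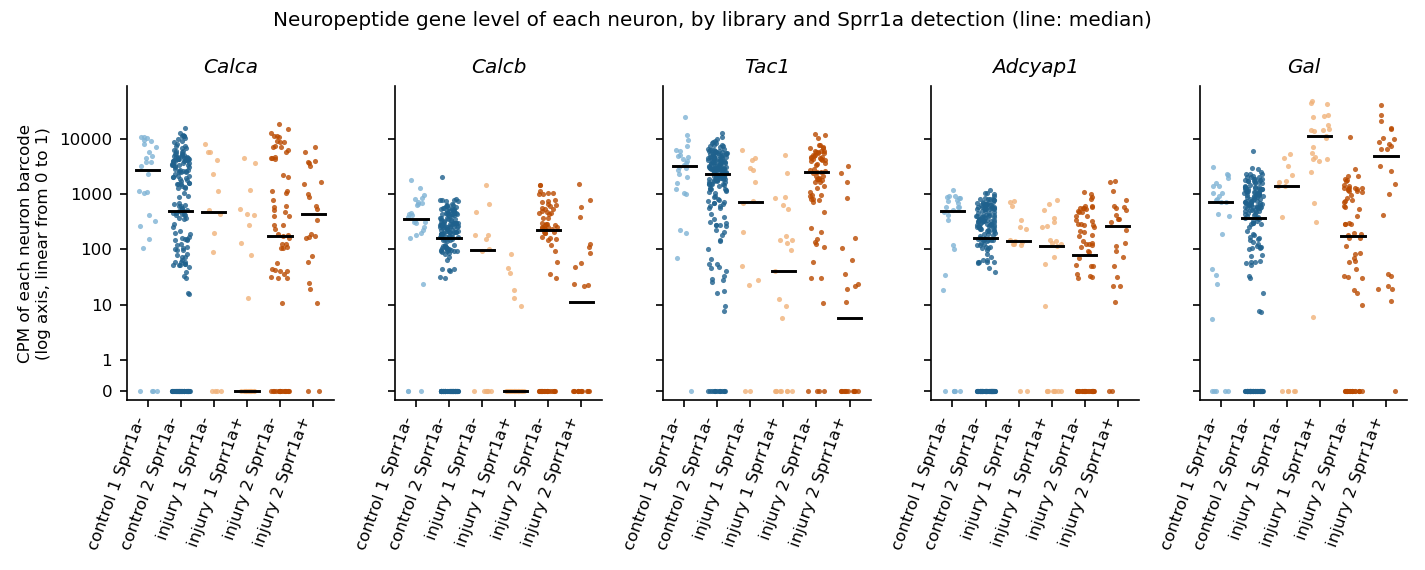
Level of the peptide genes in single neurons (CPM on a log axis that is linear from 0 to 1) by library and Sprr1a status, with a line at the median of each group. The *Gal* medians of the Sprr1a-positive neurons, 11302 and 4820 CPM, lie above those of the negative and control neurons.

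Depth moved with *Sprr1a* status. Positive neurons had median depths of 38095 and 41231 UMIs and negative ones 30836 and 21352 UMIs. After thinning every neuron to 5000 UMIs before the *Sprr1a* limit, *Gal* (2.32, adjusted p = 1.13e-07), *Tac1* (-4.44, adjusted p = 2.23e-12), *Calca* (-1.54, adjusted p = 2.78e-06) and *Calcb* (-2.24, adjusted p = 0.00550) kept their direction and call by edgeR. With at least 2 *Sprr1a* UMIs required, they did so too, at 3.85 for *Gal* (adjusted p = 6.54e-07), -5.24 for *Tac1* (8.34e-05), -1.46 for *Calca* (0.0468) and -3.59 for *Calcb* (8.34e-05). Over the alternatives the adjusted p of *Calca* reached 0.130 and that of *Calcb* 0.283, both without the library block, while *Gal* (at most 0.0149) and *Tac1* (at most 0.0213) stayed under 0.05. The test rests on 2 pairs of sums, with 1 residual degree of freedom and the rest of its precision borrowed from the other genes.

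In the neurons that met no class, *Gal* stood at 317 and 404 CPM in control and at 12742 and 5437 CPM after injury. There were 88 and 43 such neurons, at median depths of 12971.5 and 20168 UMIs. *Gal* was also found in the nonpeptidergic *Mrgprd* class after injury, with 839 UMIs in 4 of 8 neurons against 3 UMIs in 13 control neurons. Its Sprr1a-positive neurons, 2 and 2 in the injury libraries, stood at 1753 and 3100 CPM. Its negative neurons, 1 and 3, stood at 0 and 4.99 CPM, so that 1 neuron can set any of these values. In the neurons with *Mrgprd* and no *Sprr1a* UMI, 13 in control and 3 after injury, *Calcb* stood at 961 and 853 CPM, *Calca* at 1177 and 644 CPM and *Gal* at 4.06 and 3.95 CPM. The *Calcb* level of the control neurons came from few of them, with 318 of 594 UMIs in 1 of 4 neurons of control replicate 1 and 279 of 354 UMIs in 1 of 9 of control replicate 2, and their median was 6 UMIs.

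The remaining members were rare. *Sst* had 0 UMIs in 3 libraries and 31 in injury replicate 2, all in 2 neurons with 19 and 12. The same 2 neurons held 16 and 15 of the 37 *Nppb* UMIs, together with 19 and 10 UMIs of *Osmr*, the oncostatin M receptor, 8 and 2 of *Il31ra*, the interleukin-31 receptor, and 10 and 14 of the serotonin receptor *Htr1f*. They were the 2 neurons of the *Il31ra* class and had 0 *Sprr1a* UMIs. Other *Nppb* UMIs were single ones in 6 barcodes, of which 2 were neurons. The joint presence of somatostatin, natriuretic polypeptide b and the itch cytokine receptors is the textbook profile of the itch neurons. In control, 0 of 220 neurons held an *Sst* UMI, which allows a share of neurons with a UMI of up to 1.36% and does not limit the share that expresses the gene, so that the itch neurons could not be compared between conditions at this depth.

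For *Npy*, 5 and 15 UMIs were counted in control and 22 and 991 after injury. In neurons it stood at 0.897 and 0 CPM in control and at 3.64 and 312 CPM after injury. Of the 957 neuron UMIs of injury replicate 2, 950 came from 1 neuron, which held 104583 UMIs in all, 213 *Sprr1a* UMIs, 111 *Nts* UMIs and 2 *Gal* UMIs. Without its top neuron this library stood at 2.36 CPM. The high *Npy* level was thus that of 1 cell. Outside neurons, *Npy* was found in satellite glia of all 4 libraries, at 17.0 and 4.72 CPM in control and at 6.00 and 6.67 CPM after injury. Together these were 44 UMIs in 18 of 1630 barcodes. The 17.0 CPM of control replicate 1 came from 4 UMIs in 1 of 76 barcodes. The most was 11 UMIs, in a barcode of control replicate 2 that held 380 UMIs of the satellite glia marker *Fabp7* and none of any other member. *Vip* had no UMI in any barcode, and 0 of 131 neurons after injury allows a share of neurons with a UMI of up to 2.29%, which again does not limit the share that expresses it.

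Genes that process and store peptides were counted next. Of 14 listed genes, all 14 were tested in both comparisons. Between injury and control, 0 were called by edgeR or DESeq2. By edgeR, 1 was higher and 1 lower at an unadjusted p under 0.05, against 1041 of all 10621 genes tested. The median log2 fold change of the 14 was -0.27. The furthest from 0 were *Vgf* (1.08, adjusted p = 0.332), *Pam* (-1.07, 0.478), *Scg3* (-0.81, 0.523) and *Scg2* (-0.61, 0.623). Between the *Sprr1a* groups, 1 was higher and 6 were lower, where 6.9% and 6.06% of all genes tested were, and the other 7 did not pass. The median was -0.47 against -0.01 over all genes tested. The granule protein precursor *Vgf* was higher (1.48, adjusted p = 1.11e-05). Lower were the granins *Scg2* (-2.04, 1.67e-08), *Scg3* (-1.21, 0.000375) and *Chgb* (-1.11, 0.0231). So were the chaperone gene *Scg5* (-0.74, 0.0300), the amidating enzyme *Pam* (-1.48, 2.09e-05) and the vesicle priming factor *Cadps2* (-3.20, 0.00703). *Cadps2* had 1 against 4 and 2 against 37 UMIs in the positive and negative neurons of the 2 libraries, so its fold rests on few counts.

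Some other neuropeptides were, like *Gal*, higher in the sums of the *Sprr1a*-positive neurons. Of 20 listed genes, 7 were tested. Between injury and control, 0 were called by edgeR, while DESeq2 called *Nts*, *Crh* and *Pthlh* higher, against 123 of all 12040 genes it tested. By edgeR, 3 higher and 1 lower had an unadjusted p under 0.05, against 1041 of all 10621 genes tested. The median log2 fold change of the 7 was 1.14. *Nts*, *Crh* and *Pthlh* passed the filter on low counts only through the injury libraries. The count of higher genes and the median were therefore tilted upward by the filter. *Nts* (neurotensin) stood at 0 and 0.982 CPM in control neurons and at 401 and 138 CPM after injury (edgeR, adjusted p = 0.0619). *Crh* (corticotropin-releasing hormone) was at 0 in both controls and at 104 and 15.7 CPM after injury (adjusted p = 0.257), and *Pthlh* (parathyroid hormone-like hormone) was at 0 in both controls and at 27.9 and 12.1 CPM (adjusted p = 0.15). *Nmb* (neuromedin B) stood at 482 and 153 CPM against 78.8 and 133 CPM (adjusted p = 0.467).

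Between the *Sprr1a* groups 3 of the 7 were higher and 2 lower, where 6.9% and 6.06% of all genes tested were, with a median of 0.42. *Crh* and *Pthlh* passed the filter only through the positive sums, which tilted this count and median upward. By edgeR *Nts* was higher, with 640 against 22 UMIs and 355 against 69 UMIs in the positive and negative neurons of the 2 libraries (log2 fold change 3.39, adjusted p = 8.52e-15). In injury replicate 2, 111 of the 355 came from the neuron with most *Npy* UMIs, which held 2 *Gal* UMIs. Of the 69, 50 and 17 came from the 2 neurons of the *Il31ra* class. *Crh* had 171 against 0 and 46 against 2 UMIs (adjusted p = 3.03e-12), and *Pthlh* had 46 against 0 and 36 against 1 (adjusted p = 1.81e-08). Over all 351 neurons, *Nts* was found in 10.5%, *Crh* in 2.56% and *Pthlh* in 4.27%, so these sums rest on few neurons. Co-detection of these genes with *Gal* was not counted. *Nmb* (-2.23, adjusted p = 1.75e-08) and *Cartpt*, which encodes the CART peptide (-1.68, adjusted p = 2.57e-05), were lower. Transcripts of galanin and neurotensin were therefore higher in the same sums in which those of CGRP, substance P, neuromedin B and CART were lower. *Crh* and *Pthlh* could enter this test only by being high in the positive sums, so nothing is drawn from their calls.

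Of 25 receptor genes for these peptides, 7 were tested in neurons between injury and control, and 0 were called by edgeR or DESeq2. By edgeR, 1 was higher and 1 lower at an unadjusted p under 0.05, against 1041 of all 10621 genes tested. The median of the 7 was -0.29. The furthest from 0 were *Ramp3* (2.19, adjusted p = 0.366), a receptor activity-modifying protein that makes *Calcrl* an adrenomedullin receptor, *Galr1* (-1.37, 0.556), a galanin receptor, *Npy2r* (1.11, 0.531) and *Sstr2* (-0.94, 0.373). Between the *Sprr1a* groups 5 were tested, 0 were higher and 2 lower, where 6.9% and 6.06% of all genes tested were, with a median of -0.78. These were the somatostatin receptor *Sstr2* (-4.14, adjusted p = 8.17e-07) and the neuropeptide Y receptor *Npy1r* (-0.92, adjusted p = 0.0250). *Npr2* (-0.78, adjusted p = 0.264) and *Npy2r* (-0.38, adjusted p = 0.662) did not pass.

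Genes known to be induced by axotomy served as a check of the conditions. All 7 were tested, and 1, *Sprr1a*, was called higher between injury and control, where 0.0471% of all genes tested were. The median log2 fold change was 3.33. *Sprr1a* and *Ecel1*, at 0 to 0.897 CPM in control, passed the filter on low counts only through the injury libraries, which tilted this median upward. The other adjusted p values were 0.114 for *Flrt3*, 0.15 for *Sox11*, 0.158 for *Gap43*, 0.175 for *Ecel1* and 0.182 for both *Csf1* and *Atf3*. Between the *Sprr1a* groups all 7 were higher, where 6.9% of all genes tested were, with a median of 3.22. This count and median include *Sprr1a*, which was higher by the rule that formed the groups.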

How the data were processed

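The submitters' processing notes name Cell Ranger, Partek and the mouse build mm10, and the deposited files hold raw UMI counts per gene and barcode, not normalized, with 1 matrix per library. Samples were grouped by the labels (2 control, 2 injury libraries), which number 1 library of each condition as 2 and the other not at all. The genes, gene lists, markers and tests were chosen with earlier results of these data known.

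All 6975 deposited barcodes were used. A neuron held UMIs of at least 9 of 12 markers, a non-neuronal barcode under 6, and another cell type at least 3 of 6 markers. A neuron class needed at least 3 of its markers and the highest share of its list detected. Results for other neuron markers are not reported here. No doublet caller was run. Neurons that also passed the satellite glia gate (40 of 351) were left out as an alternative, and the study's limits (600 to 15000 UMIs, 500 to 4000 genes, under 10% mitochondrial UMIs), which 66 of the 351 neurons met, were applied as another. Total UMIs were 5585909 and 11210875 in control and 11163177 and 9477167 in injury. Intervals and limits for counts of 0 (3 counts) cover counting error only.

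UMIs were summed per library over neurons, and over Sprr1a-positive and Sprr1a-negative neurons of the injury libraries, and tested with edgeR 4.0.16 (glmQLFit and glmQLFTest, TMM, filterByExpr, R 4.3.3, limma 3.58.1) across all genes with Benjamini-Hochberg adjustment at 0.05. The SE is the log2 fold change divided by the square root of F. Simulated counts with known folds, drawn from the means and dispersions of these data, were tested as well. In the injury fit 71% of 4-fold and 94% of 16-fold changes were recovered, and in the Sprr1a fit 84% and 91%. The simulation used dispersions from the trend over genes and changed 200 genes. A gene that varies more between libraries than the trend is not covered, so these shares do not give the power for single genes. In the real injury fit, 1 of the 7 injury genes was called. DESeq2 1.42.0 was an alternative. Shares of neurons with a UMI were compared by two-sided exact permutation tests after each barcode was thinned to 5000 UMIs (Python 3.11.15, numpy 2.4.6, scipy 1.17.1, pandas 2.3.3). Other alternatives were RLE scaling, no filter, a stricter gate of 11 markers, no gate, thinned sums, other thinning depths, a limit of 2 Sprr1a UMIs, the replicate block, leaving out each library, and, added after seeing the data, a gate of 6 markers, leaving out the barcode with most *Npy* UMIs, and no library block.

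All members were named. From the lists of peptide processing and storage genes, receptors, other neuropeptides and injury genes, every gene past the test was named, and otherwise those with the largest change until 4 were. Likeness was Pearson's r of log levels per 10000 UMIs over neurons, with the 3 highest genes (r of at least 0.4) given for members found in at least 20 neurons. Promoter sequences came from RefSeq (GRCm38.p6), in which *Calcb* had no entry, and positions from GENCODE M21.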

Additional observations from a re-analysis of the deposited data

How the results depend on the processing

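The direction and call of *Gal*, *Tac1* and *Adcyap1* between the *Sprr1a* groups were the same under all 5 alternatives, and those of *Calca* and *Calcb* under 4, the exception being the fit without the library block. Between injury and control, *Gal* was higher under all 15 alternatives and passed the test under 6, of which 2 leave a single injury library that is assumed to vary like the controls. *Tac1* was lower under all 15 and passed under 0. *Calca* turned positive within the study's cell limits (1.34), which leave 2 neurons in injury replicate 1 and 3 in control replicate 1, and ranged from -1.18 to 0.25 when 1 library was left out, turning positive without control replicate 1 (0.0033) or injury replicate 1 (0.25). *Calcb* turned positive within those limits (0.046). *Adcyap1* did so within them (0.88) and without control replicate 1 (0.023), with a range of -0.70 to 0.023 over the libraries left out. The cause was not tested.

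Against 5 genes higher and 0 lower between injury and control, DESeq2 called 123 and 14, no filter 381 and 215, the looser gate 1 and 0, no gate 0 and 0, the study's cell limits 2 and 0, and the fit without the barcode with most *Npy* UMIs 0 and 0. Leaving out 1 library gave 0 to 145 higher and 0 to 40 lower. Members higher were 1 with DESeq2, 4 with no filter, 1 within the cell limits and 0 to 2 with 1 library left out, against 0. Without injury replicate 1 these 2 were *Gal* and *Npy*. Members lower were 1 with no filter, *Calcb*. The 4 members higher with no filter were *Gal*, *Npy*, *Nppb* and *Sst*, where 381 of 17453 genes tested were higher. *Sst* and *Nppb* had 0 UMIs in control neurons, and 950 *Npy* UMIs came from 1 neuron. Between the *Sprr1a* groups, 604 higher and 530 lower became 232 and 184 without the library block and 142 and 104 after thinning, where 1776 genes were tested. Members higher became 2 and lower 5 with no filter, and lower became 1 without the block. The members added with no filter were *Npy*, higher, and *Sst* and *Nppb*, lower, all rare.

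With the replicate number as a block, 98 genes were higher and 8 lower, and 1 member, *Gal*, was called higher. With a block that paired libraries of unequal number instead, 75 genes were higher and 2 lower. The labels do not say that a number marks a shared batch. With 2 pairs, the correlation of the differences between replicates was 0.16 over 10621 genes. Libraries of equal number were alike in other ways. Neurons were 1.88% and 1.47% of barcodes in control and injury replicate 1, against 10.9% and 7.26% in replicate 2. Median depths over all barcodes were 2756 and 3118 UMIs, against 4197.5 and 4934.5. Whether a number marks a shared batch was not tested, so fits with and without the block are both given.

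For the shares of neurons, the difference turned positive for *Adcyap1* with no thinning (0.125 points) and for *Npy* after thinning to 2000 UMIs (0.532), with no thinning (6.39), with the stricter gate (0.750) and with the looser gate (0.0371). With 1 library left out, *Gal* ranged from -9.08 to 18.8 points and *Npy* from -2.77 to 1.08, the latter turning positive without control replicate 1 or injury replicate 1 (0.227). Control replicate 1 rests on 26 neurons and injury replicate 1 on 37, so that single large neurons weigh on their sums. Free RNA sets a floor under every share of barcodes with a UMI.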

Other observations

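Several receptor genes of these peptides were measured in the non-neuronal cells of the ganglion. *Calcrl*, which binds CGRP when paired with *Ramp1*, was highest in endothelial cells at 93.9 ± 26.3 CPM (SD, n = 4 libraries), with a UMI in 34.1% of their barcodes, and stood at 1.08 ± 0.740 CPM in neurons. *Ramp2*, with which it binds adrenomedullin, stood at 595 ± 94.5 CPM in endothelial cells and 576 ± 91.3 CPM in fibroblasts, which did not differ beyond their spread, and at 255 ± 13.2 CPM in satellite glia. *Ramp1* was highest in mural cells, the contractile cells of vessels, at 193 ± 42.5 CPM, followed by neutrophils at 117 ± 42.4 CPM and macrophages at 104 ± 25.3 CPM. The neuropeptide Y receptor *Npy1r* stood at 387 ± 205 CPM in mural cells, 103 ± 27.2 CPM in neurons and 65.2 ± 8.26 CPM in fibroblasts. *Adcyap1r1*, the PACAP receptor, stood at 20.3 ± 11.4 CPM in mural cells, and *Npr1*, a natriuretic peptide receptor, at 39.5 ± 13.5 CPM in endothelial cells. In neurons *Sstr2* stood at 30.1 ± 13.4 CPM and *Npr2* at 26.3 ± 8.64 CPM.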
